A study of Mus musculus with 8 samples.

Results

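The genes that encode ligands of the EGF receptor (EGFR), together with Nrg1 and the receptor gene Egfr, were followed in cultured bone marrow mesenchymal stem cells (MSCs) of mice with and without a conditional deletion of Mettl3, the catalytic subunit of the enzyme that writes N6-methyladenosine (m6A) into mRNA. The 8 genes were chosen by name, as Areg, Ereg, Hbegf, Btc, Tgfa, Epgn, Nrg1 and Egfr, out of 47643 named entries in the deposited expression table; the rule uses no measured value, but the set was proposed with earlier results of these data known. The RNA-seq data comprised 2 libraries labelled WT, wild type in the labels and Mettl3fl/fl littermates in the study's methods, and 2 labelled cKO, of the genotype Prx1-cre;Mettl3fl/fl. Prx1-Cre acts in limb bud mesenchyme and its descendants, so that cells of other origin in the same marrow keep both Mettl3 alleles. All mice were of the C57BL/6 strain, the age of the mice for these libraries is not given in the sources used here, and all cells had been flushed from marrow, plated and kept for 2 days in osteogenic medium, which added dexamethasone (100 nM), ascorbic acid (50 µg/ml) and β-glycerophosphate (5 mM). The m6A data were 1 list of peaks from 2 immunoprecipitates and 2 inputs of wild-type MSCs in the same medium.

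EGFR ligands are made as proteins anchored in the cell membrane, and metalloproteases of the ADAM family release their active part, which then binds the receptor on the same or a neighbouring cell. Ligand binding lets EGFR pair with itself or with its relatives ErbB2, ErbB3 and ErbB4 and start the Ras-ERK cascade, which in turn induces immediate early genes and feedback inhibitors. In bone, EGFR signalling is known for keeping osteoprogenitors in number and for slowing their maturation, and amphiregulin is known as a ligand that parathyroid hormone induces in osteoblasts through cAMP.

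HB-EGF, transforming growth factor α, epiregulin and amphiregulin transcripts were all lower in the libraries labelled cKO, whereas Nrg1 and Egfr transcripts were higher (adjusted p under 0.05 in each case). Of the 8 genes, 7 had enough counts to be tested, 4 were called lower, 2 were called higher, and Btc was not called. Among all 15327 genes tested, 16.8% were called lower and 13.7% higher, so that the count of members called is to be read against a background in which many genes differed. A test on log2(TPM + 0.1) in limma gave 1442 lower and 1779 higher genes, where edgeR's quasi-likelihood test gave 2577 lower and 2100 higher. The median log2 change was -2.22 over the 7 genes and -0.00378 over all genes tested; the former is the value of Ereg and does not depend on the one fitted for Areg, which had almost no counts in cKO. Levels are given as CPM, counts scaled to a common library size with the TMM factors of edgeR, for comparisons of 1 gene between libraries, and as TPM, a share of all transcripts that takes account of length, for comparisons between genes.

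Libraries held between 23978099 and 34106693 counts. The 2 libraries labelled cKO were very alike: their gene counts varied by 1.9% beyond sampling noise (biological coefficient of variation), against 12.3% for the 2 labelled WT, and nothing in the sources says whether the replicates came from separate mice or cultures, so that p-values measure only the spread between these libraries. Mettl3 itself does not check the labels, since gene-wide counts include exons outside the deletion: it had 17.6 and 16.9 CPM in WT, and 17.5 and 16.3 CPM in cKO (log2 change -0.03 ± 0.0929 SE, adjusted p = 0.824, edgeR). Each direction given here therefore rests on the labels of the libraries. Transcripts that define macrophages were abundant in every library, with a summed level of 18400 to 23800 TPM over 10 macrophage markers in WT and 25600 to 25800 TPM in cKO, against 1240 to 1400 TPM and 985 to 1000 TPM for 10 marrow stromal markers. Most of each macrophage sum was Lyz2, at 14417.8 and 20116.83 TPM in WT and 21565.5 and 21709.28 TPM in cKO. The cultures thus held RNA of macrophages and of stromal cells. In such bulk samples fewer cells of a type and less RNA per cell cannot be told apart.

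Hbegf (ENSMUSG00000024486), which lies on the minus strand of chromosome 18 from 36504929 to 36515805 (GRCm38), encodes heparin-binding EGF-like growth factor, a ligand of EGFR and ErbB4 that is also the receptor of diphtheria toxin. It had 2127 and 1938 counts in the WT libraries and 127 and 109 in the cKO libraries, which correspond to 62.9 and 68.6 CPM against 5.24 and 3.42 CPM. Both WT values lay far above both cKO values. The level was 15.4-fold higher in WT (log2 change -3.95 ± 0.174 SE, 95% interval -4.37 to -3.53, adjusted p = 3.6e-05, edgeR), a larger fall than that of 94.7% of the 2577 genes called lower.

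Tgfa (ENSMUSG00000029999; chromosome 6, 86195223 to 86275719, plus strand) encodes transforming growth factor α, a classical high-affinity ligand of EGFR. Its counts were 318 and 285 in WT and 48 and 39 in cKO, or 9.41 and 10.1 CPM against 1.98 and 1.22 CPM, without overlap. The difference was 6.19-fold (log2 change -2.63 ± 0.227 SE, adjusted p = 0.000511, edgeR). On the deposited TPM scale the fall was smaller and the cKO libraries lay further apart, at 0.64 and 1.52 TPM against 2.87 and 3.03 TPM in WT, and the cKO library with fewer Tgfa reads had the higher TPM. In a limma test on log2(TPM + 0.1) the log2 change of Tgfa was -1.48 with an adjusted p of 0.0607, so that the call was lost there, whereas with a pseudocount of 1 it was kept (adjusted p = 0.0449).

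Ereg (ENSMUSG00000029377; chromosome 5, 91074622 to 91093646, plus strand) encodes epiregulin, a low-affinity ligand of EGFR and ErbB4. It had 222 and 249 counts in WT, and 43 and 49 in cKO. In CPM these were 6.57 and 8.81 against 1.77 and 1.54, again with no overlap, and the level was 4.65-fold higher in WT (log2 change -2.22 ± 0.222 SE, adjusted p = 0.000939, edgeR). An antisense entry, Gm42532, overlaps the start of Ereg and was assigned at most 3 counts in a library; the kit does not mark strand, so that antisense reads within Ereg cannot be told apart from its own.

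Areg (ENSMUSG00000029378; chromosome 5, 91139599 to 91148432, plus strand) encodes amphiregulin and was close to undetected in cKO. The WT libraries held 42 and 46 Areg counts, 1.24 and 1.63 CPM, and the cKO libraries 0 and 1 counts. With 88 counts in all against 1, the ratio was 79.5 with an exact 95% counting interval from 13.9 to 3180, which covers counting error only. The adjusted p was 0.00166 (edgeR), and leaving out any library kept the call (highest adjusted p = 0.00428 over all 11 alternatives). A count of 3, taken as the floor in 1 library, stands for 0.124 CPM in cKO replicate 1 and 0.0941 CPM in cKO replicate 2, and both WT values were above it by more than their spread.

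Areg is known to be induced through the cAMP response element, which the factor CREB binds, and its promoter is therefore shown. RefSeq promoters were at hand for 5 of the 8 genes (Areg, Btc, Tgfa, Epgn and Egfr), and the 250 bases before the Areg start (GRCm38.p6, chr5:91139349-91139598, plus strand) read as follows, with TGACGTCA and the shorter TGACG, on either strand, in capitals.
Areg: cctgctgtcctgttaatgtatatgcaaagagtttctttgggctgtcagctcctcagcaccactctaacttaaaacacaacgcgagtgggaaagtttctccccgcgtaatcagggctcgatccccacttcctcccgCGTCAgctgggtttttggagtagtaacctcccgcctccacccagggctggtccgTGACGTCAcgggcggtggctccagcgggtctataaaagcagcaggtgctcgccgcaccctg

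The full palindrome TGACGTCA begins 61 bases before the start of Areg, and it includes TGACG on both strands; a further TGACG lies on the opposite strand, with its far end at position -115. Over all 32851 promoters in the table, in windows that run from 250 bases before to 50 after the start, TGACGTCA occurred in 1.79% and TGACG in 20.8%. Of the other 4 promoters, those of Btc and Epgn each held 1 TGACG, neither within a full palindrome, and those of Tgfa and Egfr held none. The AP-1 type motif TGANTCA, in which N is any base, occurred in 7.81% of all promoters and in none of the 5. A match of letters is a description of the sequence, not a measured binding site.

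Btc and Epgn, which encode betacellulin (EGFR and ErbB4) and epigen (EGFR), were near the limit of detection. Btc had 11 and 14 counts in WT and 16 and 9 in cKO, at 0.325 and 0.495 CPM against 0.66 and 0.282 CPM. The groups overlapped, and the log2 change of 0.17 had a 95% interval from -1.18 to 1.52 (adjusted p = 0.85, edgeR), which allows more than a doubling or a fall to under 0.5 of the WT level. Its sign turned when WT replicate 1 (log2 change -0.12) or cKO replicate 1 (-0.52) was left out. Epgn had 4, 4, 2 and 0 counts and was not tested; the ratio of 8 counts to 2 was 3.62, with an exact 95% interval from 0.721 to 34.9. No difference in either gene was detectable at this depth.

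Epgn, Ereg, Areg and Btc lie in that order within 376 kb of chromosome 5 (91027464 to 91402994, GRCm38). The start of Ereg is 65 kb from that of Areg, Epgn lies on the far side of Ereg, and Btc lies on the opposite strand beyond Areg. The 2 inner genes of the cluster fell, and neither of the outer ones showed a difference that its counts could resolve.

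**Figure D1:**
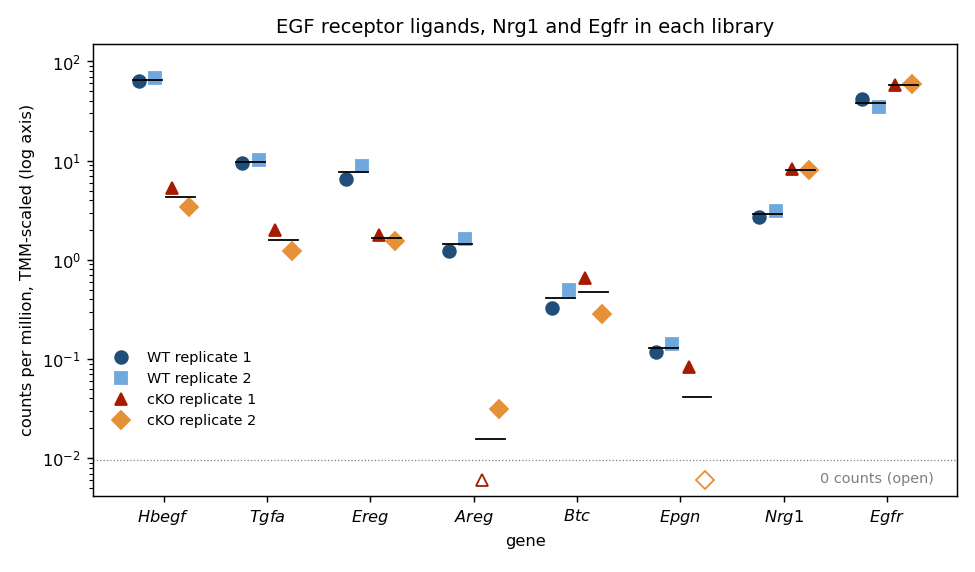
CPM (log axis) of each gene in each of the 4 libraries; horizontal bars are group means, and open symbols below the dotted line are libraries with 0 counts. Hbegf, Tgfa, Ereg and Areg are lower in both cKO libraries, Nrg1 and Egfr are higher in both, and Btc overlaps.

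Nrg1 and Egfr moved the other way. Nrg1 (ENSMUSG00000062991; chromosome 8, 31814551 to 32884029, minus strand) encodes neuregulin 1, which has an EGF-like domain but binds ErbB3 and ErbB4 rather than EGFR. It had 92 and 88 counts in WT and 200 and 255 in cKO, or 2.72 and 3.11 CPM against 8.25 and 8 CPM. Both cKO values exceeded both WT values, and the level was 2.79-fold higher in cKO (log2 change 1.48 ± 0.154 SE, adjusted p = 0.00109, edgeR). A lincRNA on the opposite strand within Nrg1, Gm26578, had 4 and 4 counts in WT and 17 and 14 in cKO, and reads of the 2 genes cannot be told apart by strand.

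Egfr (ENSMUSG00000020122; chromosome 11, 16752203 to 16918158, plus strand) had 1417 and 977 counts in WT and 1396 and 1873 in cKO. Scaled for depth these were 41.9 and 34.6 CPM against 57.6 and 58.8 CPM, with no overlap and a larger spread in WT. Egfr rose 1.52-fold (log2 change 0.6 ± 0.1 SE, 95% interval 0.36 to 0.85, adjusted p = 0.00639, edgeR), and 61% of the 2100 genes called higher rose by less. Without WT replicate 1 the log2 change was 0.76, and without WT replicate 2 it was 0.47. On the count scale the size of this difference thus depends on which WT library it is set against. On the deposited TPM scale the 2 WT libraries were alike, at 9.95 and 9.88 TPM.

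**Figure D2:**
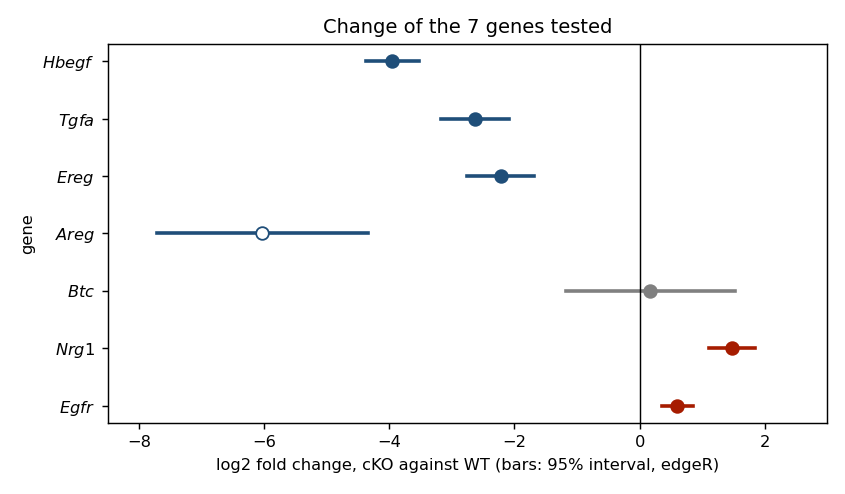
Log2 fold change in cKO against WT with its 95% interval (edgeR) for the 7 genes tested; blue is called lower, red called higher and grey not called, and the open symbol marks Areg, whose cKO libraries held 0 and 1 counts. The interval of Btc spans 0, and those of the other 6 genes do not.

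Between genes, levels per length put Hbegf first by a wide margin in WT. Its mean of 40.1 ± 1.75 TPM (SD, n = 2) exceeded the level of 77.7% of the genes tested. Egfr followed at 9.91 ± 0.0495 TPM, then Tgfa at 2.95 ± 0.113, Ereg at 2.55 ± 0.488, Areg at 1.94 ± 0.311, Nrg1 at 1.56 ± 0.00707, Btc at 0.215 ± 0.0778 and Epgn at 0.17 ± 0.0707 TPM. The ranges of Tgfa and Ereg overlapped, as did those of Btc and Epgn, so that these neighbours cannot be ordered. In cKO the order was Egfr at 15.5 ± 0.898 TPM, Nrg1 at 4.1 ± 0.17, Hbegf at 2.83 ± 0.834, Tgfa at 1.08 ± 0.622, Ereg at 0.59 ± 0.0566, Btc at 0.25 ± 0.141, Epgn at 0.04 ± 0.0566 and Areg at 0.025 ± 0.0354 TPM (SD, n = 2). The higher Ereg value, 0.63 TPM, came close to the lower Tgfa value, 0.64 TPM, and the ranges of Epgn and Areg overlapped. With TMM-scaled CPM divided by the gene length in the table, parts of both orders turned: in cKO Hbegf (mean 1.83 CPM per kb) lay above Nrg1 (0.785) and Ereg (0.401) above Tgfa (0.247), and in WT Ereg (1.86) lay above Tgfa (1.5).

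Summed over the 6 ligands that bind EGFR, the level was 46 and 49.8 TPM in the WT libraries and 5.12 and 4.51 TPM in the cKO libraries, a ratio of 9.95 between the means. Hbegf supplied 84.4% and 83% of that sum in WT, and 66.8% and 49.7% in cKO. By CPM per kb its share was 86.3% and 84.7% in WT, and 70.4% and 68.9% in cKO, so that the size of the drop in share depends on the scale. Without Hbegf the sums were 7.18 and 8.48 TPM against 1.7 and 2.27 TPM, so that the other ligands also summed to less in both cKO libraries. Set against Egfr in the same library, ligand transcripts stood at 4.63 and 5.04 TPM per TPM of Egfr in WT and at 0.345 and 0.28 in cKO; by CPM per kb these ratios were 8.3 and 11.2 in WT and 0.616 and 0.403 in cKO. Nrg1 made up 3.28% and 3.02% of the 7 ligands in WT and 45.2% and 46.9% in cKO. This share too depends on how length is counted: by CPM per kb, Nrg1 made up 0.849% and 0.874% in WT and 20.3% and 27% in cKO. Transcript levels say nothing about how much ligand was shed.

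**Figure D3:**
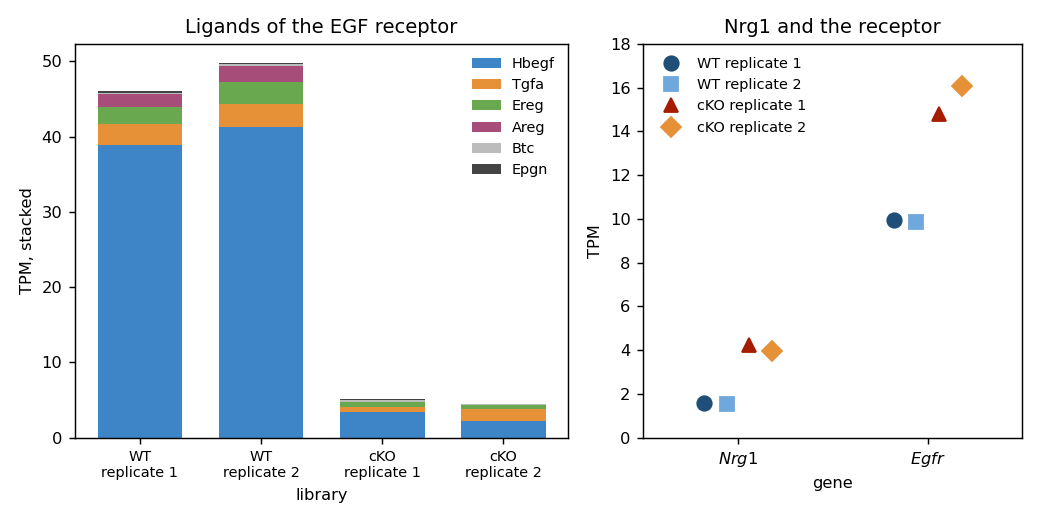
Left, TPM of the 6 EGFR ligands stacked for each library; right, TPM of Nrg1 and Egfr, 1 point per library. The stacked sums are 46 and 49.8 TPM in WT and 5.12 and 4.51 TPM in cKO, and most of each WT bar is Hbegf.

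The deposited list of 10160 m6A peaks placed 1 peak on each of Hbegf, Nrg1 and Egfr, and none on the other 5 genes. A peak was given to the gene that holds its summit, on mm9 and the GENCODE vM1 annotation. Any overlap of peak and gene gave the same 3 genes with a peak, and no peak in a space between genes lay within 10 kb of the ends of any of the 8. Among the 14118 tested genes with a position on mm9, 40.1% had a peak, and the share rose with the RNA level: 7.61% of genes with a mean under 1 CPM in WT, 27.3% from 1 to 10 CPM, 48.2% from 10 to 100 CPM and 53.4% above that. Hbegf and Egfr were in the third class, Tgfa, Ereg, Nrg1 and Areg in the second, and Btc and Epgn in the lowest, so that the lack of a peak on a gene of low level is not evidence of the lack of m6A.

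**Figure D4:**
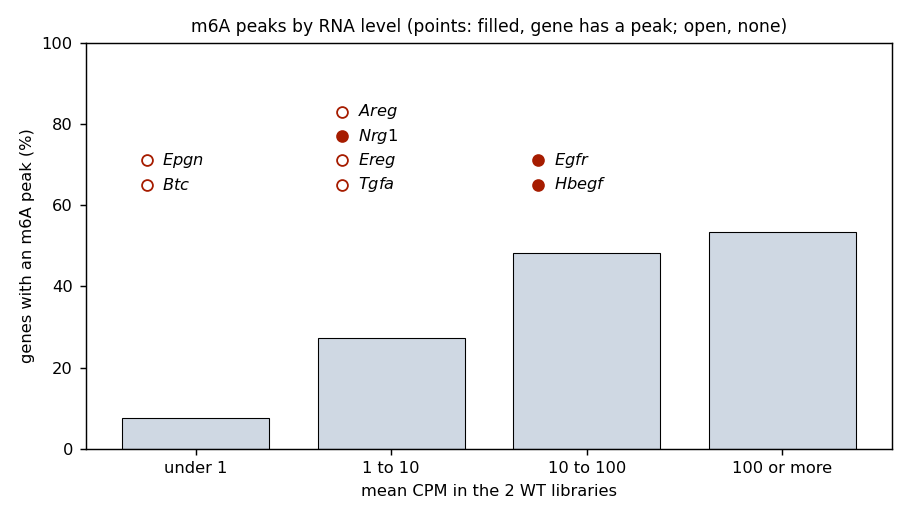
Bars give the percentage of tested genes with at least 1 m6A peak in 4 classes of mean CPM in WT, and points above each bar name the genes of that class, filled where the gene has a peak; the height of a point has no meaning. The 2 members in the class from 10 to 100 CPM, Egfr and Hbegf, both have a peak, as does Nrg1, 1 of 4 members in the class from 1 to 10 CPM.

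The Egfr peak (mm9, chr11:16811622-16812039, 418 bp) covered the stop codon in the last exon, exon 28 of 28, with its summit in coding sequence 64 nt before the stop codon. Its pileup was 43 fragments and its fold enrichment 4.486, with a −log10 q-value of 13.203, and 59.3% of all peaks had a lower enrichment. On Nrg1 the peak (mm9, chr8:32928682-32928894, 213 bp) lay in coding sequence of the last annotated exon, exon 9 of 9, and its summit was 223 nt before the stop codon. Its pileup of 16 and its −log10 q-value of 6.605, which exceeded that of 14.6% of peaks, were below those of the Egfr peak, while its fold enrichment of 5.309, above that of 72.4% of peaks, was higher. The vM1 model of Nrg1 is shorter than the gene in the expression table, so that peaks on exons missing from it would not have been counted. The study found the motif GGAC enriched in the m6A sites of these cells. The 30 bases around each GGAC of the 2 peaks are therefore shown on the transcript strand with this motif in capitals. Other motifs were not searched, so that other positions under the peaks may also carry m6A. The Nrg1 window (chr8:32928721-32928750, minus strand) has its GGAC 12 nt from the summit, and the Egfr windows (plus strand) lie at chr11:16811734-16811763 in coding sequence and at chr11:16811880-16811909 and chr11:16811898-16811927 in the 3′UTR.
Nrg1: ataggttggaaatGGACagcaacccaagtt
Egfr, coding: ctgactaccagcaGGACttcttccccaagg
Egfr, first in 3′UTR: ctataaaatgtctGGACtttctagaatccc
Egfr, next in 3′UTR: ttctagaatcccaGGACcaactatggcagc

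GGAC begins 109 nt before the stop codon of Egfr in the first of its windows, and 37 and 55 nt after it in the others. The motif is frequent: 93.4% of the peaks within 20% of the length of the Egfr peak held at least 1 GGAC, and 75.9% of those of a length like the Nrg1 peak did. Its presence therefore does not set these peaks apart.

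The Hbegf peak lay wholly in the 3′UTR, in exon 6 of 6 (mm9, 36665520 to 36665756 on the minus strand), with its summit 421 nt after the stop codon. It had a pileup of 36, a fold enrichment of 5.688, above that of 77.1% of peaks, and a −log10 q-value of 14.602, and it held 2 GGAC. The member with the largest WT level and a called fall and the 2 members called higher thus carried a peak, whereas Tgfa, Ereg and Areg, also called lower, carried none in this list. The peak list comes from wild-type cells only and has no replicate error, so m6A in the cKO cells was not measured here. With only peaks of a −log10 q-value of at least 10, Hbegf and Egfr kept their peak and Nrg1 did not.

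Among the rest of the ErbB family, no gene was called. Egf had 0.917 and 0.566 CPM in WT and 1.24 and 1.26 CPM in cKO (adjusted p = 0.172, edgeR). Nrg4 had 1.95 and 1.98 CPM against 2.31 and 2.92 CPM, and Nrg2 between 1.77 and 2.31 CPM in every library. Nrg3 had 0 counts in all 4, which allows up to 3 counts in each for the entry as deposited. The position of that entry, 39471972 to 39472666, spans fewer bases than its gene length of 4011, so that reads of Nrg3 may have been missed. Erbb2, which encodes the co-receptor without a ligand of its own, was the most abundant of the other receptors, at 11.2 and 13.5 CPM in WT and 14.4 and 13.6 CPM in cKO (log2 change 0.19 ± 0.124 SE, adjusted p = 0.302). Its 95% interval, from -0.11 to 0.49, allows only small changes. Erbb3 ranged from 2.52 to 3.67 CPM with a log2 change of -0.23 (adjusted p = 0.484), and Erbb4, with 8 and 6 counts in WT and 0 and 0 in cKO, was not tested.

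For ligand shedding and trafficking, 15 genes were tested, of which 2 were lower and 4 higher, with a median log2 change of 0.12. The background over all genes tested, 16.8% lower and 13.7% higher, applies to this and the following lists. Adam17, the main sheddase of Hbegf, Tgfa, Areg and Ereg, was not called, at 171 and 166 CPM in WT and 186 and 184 CPM in cKO (log2 change 0.13 ± 0.0569 SE, adjusted p = 0.13). Adam9, the most abundant gene of this list without a call, had 461 and 445 CPM against 495 and 487 CPM (adjusted p = 0.17). Adam12, a sheddase for Hbegf, fell from 77.2 and 70.1 CPM to 32.2 and 35.4 CPM (adjusted p = 0.00028). Timp3, an inhibitor of ADAM17, rose from 168 and 257 CPM to 323 and 324 CPM (adjusted p = 0.0463). Rhbdf2, which encodes an iRhom that matures ADAM17, rose from 39.7 and 41.3 CPM to 47.8 and 50.7 CPM (adjusted p = 0.0266). Its relative Rhbdf1 was not called, at 37.2 and 38.5 CPM in WT and 44 and 40.6 CPM in cKO (adjusted p = 0.161). Adam19 rose with a log2 change of 0.9 (adjusted p = 0.0072). Without either cKO library, 1 gene of the list was lower and 2 were higher, while 3 were lower and 7 higher without WT replicate 1, and 4 and 8 without WT replicate 2. Calls over all genes moved with these fits: 4495 lower and 4255 higher of 15691 tested without WT replicate 1, 4108 and 3826 of 15856 without WT replicate 2, and 1143 to 1169 lower and 724 to 735 higher without a cKO library.

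The negative regulators of EGFR split. Of 23 tested, 5 were lower and 8 higher, with a median log2 change of 0.16. Errfi1, which encodes the EGFR kinase inhibitor MIG6 and is induced by the receptor, fell from 331 and 327 CPM to 135 and 135 CPM (log2 change -1.28 ± 0.0566 SE, adjusted p = 3.6e-05). Dcn, which encodes the matrix proteoglycan decorin that can also bind EGFR, had 500 and 609 CPM in WT and 18.8 and 19.6 CPM in cKO (log2 change -4.85, adjusted p = 4.08e-06). The feedback inhibitors Spry2 and Spry4 were lower, with log2 changes of -1.18 and -1, while their relatives Spry1, Spred1 and Spred2 were higher, with changes of 0.53, 0.5 and 0.39. Cbl, the ubiquitin ligase of activated EGFR, rose from 179 and 142 CPM to 225 and 226 CPM (adjusted p = 0.0186), and the phosphatase gene Ptprj rose with a log2 change of 0.39 (adjusted p = 0.00513). Ptpn1, the most abundant regulator without a call, had a log2 change of -0.06. The rises were small, and when either cKO library was left out only 2 genes of the list were called higher, against 4 lower.

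Genes of the receptor adaptors and the ERK core showed small differences. Of 22 tested, 1 was lower and 5 higher, and the median log2 change was 0.08. Pik3r1, Gab2 and Plcg1, adaptor and effector genes of activated receptors, rose with log2 changes of 0.44, 0.46 and 0.3, and Stat3 fell with one of -0.21 (adjusted p = 0.0384). The kinase gene Map2k1, of the cascade itself, had a change of 0.01 (adjusted p = 0.94), and Akt1 had one of 0.07 (adjusted p = 0.474). These counts turned on the libraries used, as did the calls over all genes given above: 1 gene was higher without either cKO library, and 11 were higher without either WT library.

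Genes that ERK signalling is known to induce included several large falls. All 20 were tested, of which 10 were lower and 2 higher, with a median log2 change of -0.43. Ptgs2, which encodes cyclooxygenase-2, had 109 and 149 CPM in WT and 6.6 and 6.9 CPM in cKO (log2 change -4.25 ± 0.173 SE, adjusted p = 2.51e-05). Plaur, the urokinase receptor gene, fell from 90.9 and 89.4 CPM to 21.6 and 19.4 CPM, and Ier3 from 57.4 and 78.1 CPM to 12 and 11.3 CPM. The AP-1 genes Fos and Fosl1 had log2 changes of -1.93 and -2.5. In contrast, Egr1 (-0.25, adjusted p = 0.306), Dusp4 (0.14, adjusted p = 0.312) and Etv5 (0.33, adjusted p = 0.0883), which the same cascade induces, were not called. Dusp6, the ERK phosphatase gene, rose from 32 and 26.7 CPM to 41.1 and 42.7 CPM (adjusted p = 0.0125). Mcl1, the most abundant of the list, rose with a log2 change of 0.32, and Ccnd1, with 254 and 164 CPM in WT and 276 and 277 CPM in cKO, was the most abundant without a call. Without either cKO library, 7 of these genes were lower and 0 higher, and without either WT library 11 were lower and 5 higher. ERK activity was not measured here, and many of these genes also respond to other signals.

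**Figure D5:**
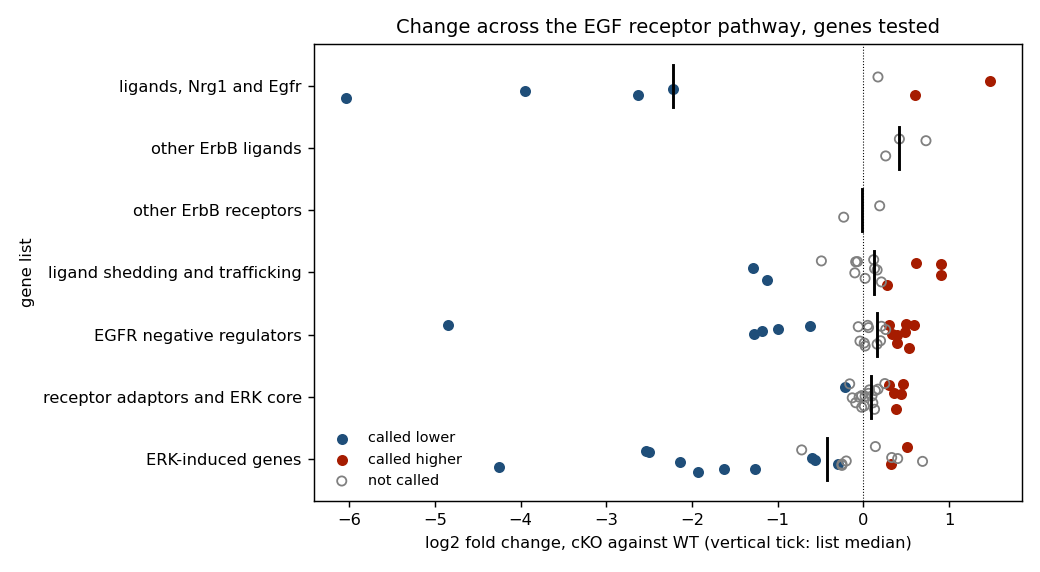
Log2 fold change in cKO against WT of every tested gene of the members and of 6 pathway lists, 1 point per gene; filled points were called (blue lower, red higher), open ones were not, and the black tick is the median of the list. The medians are -2.22 for the members and -0.43 for ERK-induced genes, and lie between -0.02 and 0.42 for the other 5 lists.

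Markers of other cell types were compared in the same libraries, since the ligands are also made by epithelial, glial and blood cells. Of the 10 macrophage markers, 1 (Ptprc, log2 change 0.42) was higher and none was lower; Lyz2, the most abundant, had a log2 change of 0.22 (adjusted p = 0.342). Schwann cell markers fell with the ligands: 5 of 7 tested were lower, and their summed level went from 32.8 to 35.7 TPM in WT to 6.4 to 6.58 TPM in cKO, led by S100b (25.6 and 28.6 CPM against 3.92 and 3.67 CPM). Erbb3, a member of this list and of the ErbB family, was not called. Epithelial markers were low, with a sum of 3.98 to 6.55 TPM in WT and 0.82 to 1.23 TPM in cKO; 3 of 4 tested were lower, led by Krt19 (2.6 and 3.25 CPM against 0.66 and 0.722 CPM), and Krt5, Krt14 and Grhl2 were at or near 0. Mast cell and basophil markers summed to 6.71 to 8.07 TPM in WT and 1.8 to 2.56 TPM in cKO. Both genes tested, Kit and Mcpt8, were lower, while Mcpt4, Tpsb2, Fcer1a and Ms4a2 were at 0 in all 4 libraries. Cpa3 and Hdc, whose deposited positions are not shorter than their gene lengths, had at most 1 count in a library. Neutrophil markers summed to 18.3 to 20.8 TPM and 3.87 to 5.92 TPM. Of the 2 tested, S100a8 was lower (2.72 and 3.4 CPM against 0.784 and 0.377 CPM), and Camp was not called (log2 change -0.26, adjusted p = 0.739, edgeR). Elane and Ly6g had at most 4 counts in a library, and S100a9, Mpo, Ltf and Ngp were at 0. The deposited positions of S100a9, Mpo, Ltf, Mcpt4, Tpsb2, Fcer1a and Ms4a2 span fewer bases than their gene lengths. Their 0 counts may therefore not show a lack of expression, which was not tested. The part of these cell types in the fall of the ligands was not tested.

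The stromal markers moved in both directions, with 4 of 10 lower and 4 higher. Col1a2, the most abundant, had 1860 and 1760 CPM in WT and 811 and 829 CPM in cKO, and Cxcl12, Eng and Col1a1 also fell, whereas Prrx1 (146 and 134 against 288 and 289 CPM), Thy1, Pdgfra and Pdgfrb rose. Endothelial markers summed to 4.84 to 5.06 TPM in WT and 11.5 to 12 TPM in cKO, and 3 of 4 tested (Kdr, Emcn and Vwf) were higher. Vwf, with the highest mean TPM, had 7.39 and 6.44 CPM in WT against 9.29 and 9.54 CPM in cKO. On the TPM scale Vwf was not higher, at 3.61 and 3.71 TPM in WT against 2.66 and 3.57 TPM in cKO. Emcn went from 0.32 and 0.58 TPM to 6.59 and 5.35 TPM. The other tested marker, Cdh5, was low and not called, with a log2 change of -1.16 (adjusted p = 0.128, edgeR). Cldn5 was at 0 and Pecam1 had at most 9 counts in a library. Lymphocyte markers summed to 5.25 to 11.7 TPM and 5.13 to 5.69 TPM. Of the 3 tested, Il7r was the most abundant and was not called (adjusted p = 0.273), and Gata3 was lower. Cd3e and Cd3g were at 0, and the deposited position of Cd3e also spans fewer bases than its gene length. The part of these markers in the changes of Egfr and Nrg1 was not tested either.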

How the data were processed

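The 8 members and all gene lists were chosen with earlier results of these data known. RNA-seq libraries were made by the authors from poly(A) RNA and mapped with HISAT2 2.0.4, per the submitters' processing notes, which also name TopHat, MACS2 and the builds mm10 and mm9. The deposited table gave, for each gene, raw estimated counts, and values headed FPKM that sum to 1000000 in each library and were used as TPM. For MeRIP-Seq they deposited 1 peak list in the layout of MACS2 on mm9, and per peak they deposited a pileup signal, a fold enrichment (a ratio over local background) and p- and q-values as −log10; whether samples were pooled is not given in the sources used here. Positions and gene lengths are other deposited values. Gene positions of the expression table are on GRCm38.

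Counts were rounded, and the 89 entries without a gene name, 0.11% to 0.125% of a library, were left out. Genes were filtered with filterByExpr, scaled by TMM (factors 0.987 to 1.01) and tested in edgeR 4.0.16 (quasi-likelihood, two-sided, no block) in R 4.3.3, with Benjamini-Hochberg adjustment over 15327 genes. Every adjusted p in the text is edgeR's unless another tool is named. With 2 libraries against 2, an exact permutation test of 1 gene cannot go below p = 0.333 and was not used. Alternatives were DESeq2 1.42.0, limma 3.58.1 and those of the closing section. The test was also run on simulated counts with the same spread in both groups. That setting differs from these data, where the WT pair varied more than the cKO pair, and its outcome is not given here. Genes named beside the members followed a rule: of each pathway list up to 4 called genes and the uncalled one with the highest mean count, of each marker list the gene with the highest mean TPM, the 3 genes most like Hbegf and like Egfr, and Mettl3; the others were named after their values were seen. Pathway lists were other ErbB ligands and receptors, shedding, negative regulators, adaptors and ERK core, ERK-induced genes and other growth factor receptors. Erbin was matched under the older symbol Erbb2ip. Promoters came from RefSeq (GRCm38.p6). Protein sequences were not analysed here. Some items of these lists are not reported here.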

Additional observations from a re-analysis of the deposited data

How the results depend on the processing

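The 6 called members kept their direction under all 11 alternatives, and their call under all but 1: Tgfa in limma on log2(TPM + 0.1) (log2 change -1.48, adjusted p = 0.0607). Btc, not called, turned sign without WT replicate 1 (-0.12) and without cKO replicate 1 (-0.52), and ranged from -0.52 to 0.7 in the leave-one-out fits. With the replicate number as a block, the same 4 members were lower and 2 higher; in the lists, the replicate block left 0 adaptor and ERK core genes lower and made 4 ERK-induced genes higher, and all other list counts stayed within 1.5 times. Same-numbered libraries had a correlation of deviations of 0.0264. The cKO pair varied by only 1.9% beyond sampling noise, so that this value cannot show whether libraries of the same number were handled together. The pair labelled cKO varied so little that leaving out a WT library raised the calls over all genes to 4108 to 4495 lower and 3826 to 4255 higher, and leaving out a cKO library reduced them to 1143 to 1169 and 724 to 735. In the same leave-one-out fits, counts ranged from 0 to 1 for other ErbB ligands higher and other ErbB receptors higher, from 1 to 4 lower and 2 to 8 higher for shedding and trafficking, from 2 to 11 for negative regulators higher, from 0 to 4 lower and 1 to 11 higher for adaptors and ERK core, and from 0 to 5 for ERK-induced genes higher. Counting the cKO libraries as 1 summed sample gave 1 lower and 2 higher for shedding, 2 negative regulators higher, 0 lower and 1 higher for adaptors, and 0 ERK-induced genes higher. DESeq2 gave 1 lower and 2 higher for shedding, and 0 adaptors lower. With limma, no adaptor gene was lower under either pseudocount (0 and 0), and log2(TPM + 0.1) gave 3 negative regulators and 3 other growth factor receptors lower. Without a filter on low counts 1 other ErbB receptor (Erbb4) was lower and 4 ERK-induced genes were higher. The share of Hbegf among EGFR ligands in WT was 85.5% by CPM per kb and 83.7% by TPM, and in cKO it was 69.7% and 58.2%. Except where the construction of the fit shows it, the cause was not tested. Depth limits Btc and Epgn, whose counts cannot resolve a difference.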

Other observations

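Transcripts of other growth factor receptors also differed between the same bulk libraries. Of 11 tested in a list of 12, 5 were lower and 4 higher. Fgfr2 fell from 133 and 127 CPM in WT to 34.5 and 36.6 CPM in cKO (log2 change -1.87 ± 0.067 SE, adjusted p = 1.59e-05, edgeR), and Fgfr3 and Igf1r, named after their values were seen, had log2 changes of -4.3 and -1.6. Pdgfrb rose from 113 and 114 CPM to 182 and 187 CPM (log2 change 0.7, adjusted p = 0.0004), Axl rose from 108 and 108 CPM to 171 and 174 CPM, and Pdgfra rose with a log2 change of 0.24 (adjusted p = 0.0216). Fgfr1, the most abundant receptor without a call, had 157 and 165 CPM in WT and 152 and 152 CPM in cKO. The rise of Egfr (log2 change 0.6) was thus of the size of those of Pdgfrb and Axl.

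Within 300 kb of the Epgn to Btc cluster on chromosome 5, 6 genes other than the ligands were tested, and these neighbours were looked up after the values of the ligands were known. The chemokine genes Cxcl1 and Cxcl5 fell, with log2 changes of -3.46 and -2.31 (adjusted p = 0.00166 and 0.00528, edgeR), and Parm1 fell with one of -0.28 (adjusted p = 0.0314). Cxcl2, between Cxcl1 and the ligands, had 2.81 and 3.93 CPM in WT and 3.14 and 3.14 CPM in cKO (adjusted p = 0.785), and Mthfd2l, the tested gene next to Epgn, had 5.77 and 7.75 CPM against 9.49 and 7.91 CPM (adjusted p = 0.183). Pf4 differed between the WT libraries, at 12.1 and 1.8 CPM.

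The genes most like Hbegf over the 4 libraries, by Euclidean distance of centred log2 CPM among 13280 genes of at least 1 CPM on average and no library at 0, were Grpr, Prg4 and Gramd2 (distances 0.298, 0.345 and 0.356). Grpr had 1.98 and 1.8 CPM in WT and 0.124 and 0.0941 CPM in cKO, which is the floor of 3 counts in each cKO library. Gramd2 lay little above that floor, at 0.289 and 0.157 CPM in cKO. Prg4, which encodes the joint lubricant lubricin, had 72.1 and 77 CPM in WT and 5.12 and 4.68 CPM in cKO. Those most like Egfr were Atad2b, Ddr2 and Rel (distances 0.0102, 0.0342 and 0.0349). Ddr2, a collagen receptor gene, had 219 and 185 CPM in WT and 300 and 304 CPM in cKO. With 4 libraries in 2 groups such likeness mainly reflects the difference between groups.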
